A study of Mus musculus with 10 samples.

Results

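Olfr1307 and Olfr166 are mouse olfactory receptor genes whose transcripts were measured in adult testis, each by 1 array probe printed at 10 spots per array. They were chosen by probe name, A_51_P362554 for Olfr1307 and A_51_P271160 for Olfr166. They are the only 2 olfactory receptors among the 45 genes that could be named on this array, out of 50 probes with a transcript accession and 60706 probes in all. The testes came from male C57BL/6J mice aged 3 months. Their mothers had been injected under the skin every day, from day 14 to day 19 after mating, with 2.5 mg/kg testosterone or only the solvent (sesame oil and benzyl benzoate). Each group held 5 samples, given as biological replicates, so the treated animals were the mothers and the measured animals their sons. The details used here name no dam or litter. If littermates are among the samples, the p-values are too small. From every testis sample the immunoprecipitated RNA (IP, Cy5 dye) and the RNA remaining in the supernatant (Sup, Cy3 dye) were hybridised together to 1 array. No antibody is named in the labels, so IP/Sup is a ratio of fractions and not the level of a particular RNA mark.

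Olfactory receptors are G protein-coupled receptors that form the largest gene family of the mouse genome. In the nose they sense odorants and signal through the G protein Golf and adenylyl cyclase to cyclic AMP. Transcripts of some members are also found in testis, mostly in germ cells, and a few have been studied in sperm as candidate sensors of chemical cues. Their coding sequence lies in a single exon, and members of a subfamily can be close in sequence. The RefSeq table lists both genes as protein coding with a length of 939 bases, with the older names MOR245-19P for Olfr1307 and MOR270-1 for Olfr166. The probe letters are not in the files used here, so hybridisation of related receptors to these probes was not tested. Genome positions are left out, since the array was designed on mm9 and the RefSeq table is of another build, GRCm38.p6.

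Both transcripts gave signal above background in both fractions of every sample. All 100 spots of Olfr1307 and all 100 of Olfr166 over the 10 arrays were well above background in Sup and in IP, and none was saturated. Spots marked as outliers by the scanner software, 7 for Olfr1307 and 4 for Olfr166, were left out, which leaves 93 and 96. For Olfr166, all 96 spots were brighter in Sup, and all 96 in IP, than the brightest of the 353 negative-control spots on their array (45 of the mouse design and 308 structural). For Olfr1307 this held for all 93 spots in Sup but for 83 of 93 in IP, so its IP signal lies nearer to the brightest negative spots. Before any correction, the mean spot brightness of Olfr1307 ran over the arrays from 73.6 to 94.5 in Sup and from 48.1 to 69.4 in IP. The median of the 45 mouse-design negative spots was 35 to 46 in Sup and 17.5 to 21 in IP. In proportion to these medians, Sup was the nearer fraction for Olfr1307 on every array. On testosterone replicate 5, where its processed Sup signal was lowest, its brightness was 73.6 against 46 in Sup and 67.1 against 20 in IP. After correction, the highest processed IP signal of a structural negative spot on testosterone replicate 4 was 981, above that of Olfr1307 on this array. Olfr166 had 148 to 201 in Sup and 130.0 to 244 in IP. In bulk tissue, fewer cells that carry a transcript and less of it per cell cannot be told apart.

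The arrays differed in overall level. The 75th percentile of the processed signal in IP was 1616 to 1703 in controls and 1395 to 1644 in testosterone replicates 1 to 3. In testosterone replicates 4 and 5, which are on a slide of their own and were scanned separately (the second scan), it was 1085 and 1084. In Sup it was 1089 and 1087 on these 2 arrays and 1377 to 1673 on the others. The share of probes well above background in IP was 61.9% and 64.3% on them and 71.7% to 76.2% on the other 8. None of the 34 testis cell type markers and none of the 22 olfactory signalling genes listed for this work is among the named genes, so neither the tissue nor the receptors' pathway could be checked.

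The processed signal is the scanner software's corrected and dye-normalized spot intensity, on a linear scale. Olfr1307 in Sup had a processed signal of 321, 388, 293, 339 and 306 in control replicates 1 to 5. In testosterone replicates 1 to 5 it was 249, 268, 301, 202 and 171. The lowest 2 values are those of the second scan, and the groups overlapped through testosterone replicate 3 and control replicate 3. In IP the processed signal of Olfr1307 was 356, 369, 399.9, 409.6 and 394 in controls and 292, 359, 359, 339 and 359.7 after testosterone. Here the second scan was not low: its arrays lay within the range of the other 3 testosterone arrays or just above it.

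Olfr166 in Sup had a processed signal of 985, 1144, 941, 895 and 1041 in controls. After testosterone it was 806, 903, 945, 850.0 and 910.1, within or below the control range. In IP the signal was 1899.6, 2043, 1737, 1819 and 1871 in controls and 1459.9, 1676, 1672, 1275 and 1315 after testosterone. All 5 testosterone arrays lay below all 5 controls, with the second scan lowest. Before scaling, 9.02% of the probes tested in IP also lay lower in all testosterone arrays. The 75th percentile given above was lowest in the second scan. In testosterone replicates 2 and 3 it was 1644 and 1630, above the 1616 of control replicate 5, so it did not separate the groups.

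**Figure D1:**
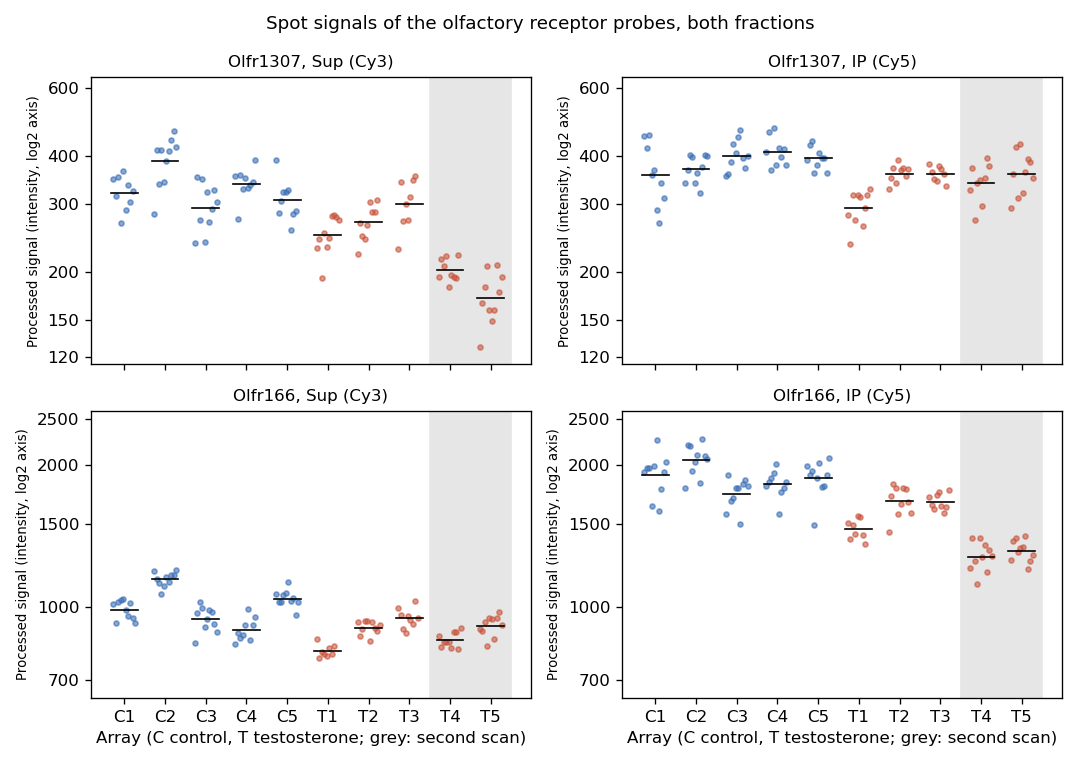
Processed signal (intensity, log2 axis) of every spot used, for Olfr1307 (upper row) and Olfr166 (lower row) in Sup (left) and IP (right), by array. Points are spots, black bars the array means on the log2 scale, blue control and red testosterone, and grey marks the second scan. In the second scan Olfr1307 is lowest in Sup, at 202 and 171, and Olfr166 is lowest in IP, at 1275 and 1315.

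The first question was in which fraction each transcript lay. Both lay towards IP, Olfr166 more steadily than Olfr1307. The IP/Sup ratio is given on the log2 scale relative to the array median, so 0 is the ratio of the median probe. Olfr166 had a log2 ratio of 0.93, 0.84, 0.95, 1.02 and 0.84 in controls and 0.94, 0.86, 0.90, 0.56 and 0.46 after testosterone. All 10 arrays were above 0, and so were all 96 of its spots. Its mean log2 ratio was 0.83 ± 0.069 (SE, n = 10), or 1.78-fold with a 95% interval from 1.60 to 1.97 (limma adjusted p = 5.26e-08).

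Olfr1307 had a log2 ratio of 0.13, -0.06, 0.52, 0.27 and 0.36 in controls and 0.32, 0.39, 0.33, 0.72 and 1.00 after testosterone. Of its arrays 9 of 10 were above 0, and of its spots 78 of 93. Control replicate 2 was the array below 0, with 2 of its 10 spots above. The mean log2 ratio was 0.40 ± 0.085 (SE, n = 10), or 1.32-fold with a 95% interval from 1.16 to 1.50 (limma adjusted p = 6.38e-04). Neither gene reached the 2-fold ratio that a call of a fraction asks for here.

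By the adjusted p alone, 40.5% of the 41359 probes tested lay towards IP and 43.7% towards Sup, so passing that threshold does not set these genes apart. With a ratio of at least 2-fold as well, 19.5% were called towards IP and 21.1% towards Sup. Both fractions had received the same amount of spike-in RNA. The 21 spike-in probes above background on all arrays had mean log2 ratios from -1.56 to 1.40 on the same scale, with a median of -0.02. Of these, 7 lay at or above Olfr1307 and 5 at or above Olfr166. In either direction, 17 of 21 were at least as far from 0 as Olfr1307 and 11 of 21 as Olfr166. No dyes were swapped, so the part of probe and dye in these ratios cannot be told apart from the fraction. With normexp background correction the ratio was 0.09 for Olfr1307, which then did not pass (limma adjusted p = 0.0741), and 0.45 for Olfr166 (limma adjusted p = 3.53e-05). Normexp used the median spot signals and local background, without the scanner software's dye normalization, and added an offset of 50 to both channels. Such an offset brings log2 differences of dim probes nearer to 0 by construction, so these values do not test the background alone. Without the second scan it was 0.29 for Olfr1307 and 0.91 for Olfr166.

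**Figure D2:**
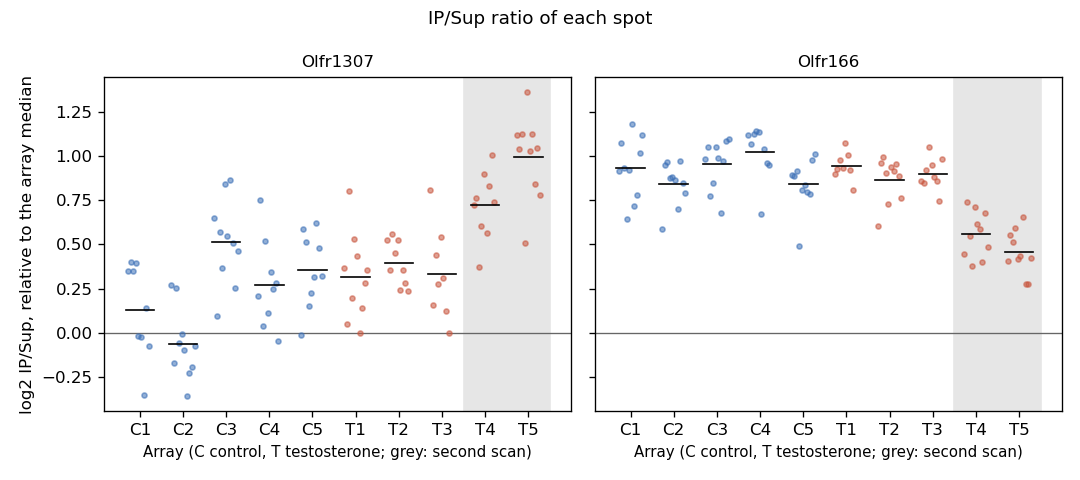
Log2 IP/Sup ratio of each spot relative to the array median (vertical axis), by array, for Olfr1307 (left) and Olfr166 (right), with the same colours and array means as bars. The second scan, in grey, is highest for Olfr1307 at 0.72 and 1.00 and lowest for Olfr166 at 0.56 and 0.46.

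Next it was asked whether the division between IP and Sup differed after prenatal testosterone. Neither gene passed. In controls the log2 ratio of Olfr1307 averaged 0.24 ± 0.221 (SD, n = 5). After testosterone it averaged 0.55 ± 0.298 (SD, n = 5). The difference was 0.31 ± 0.170 (SE), with a 95% interval from -0.06 to 0.68 (limma adjusted p = 0.794). All 5 testosterone arrays lay above the control mean, but only the 2 of the second scan lay above the highest control.

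For Olfr166 the control mean of the log2 ratio was 0.92 ± 0.077 (SD, n = 5), and the testosterone mean was 0.74 ± 0.221 (SD, n = 5). The difference was -0.17 ± 0.137 (SE), with a 95% interval from -0.47 to 0.12 (limma adjusted p = 0.815). Of the testosterone arrays 4 of 5 lay below the control mean, and again only the second scan lay outside the control range. An exact two-sided permutation test over the 252 arrangements of the arrays gave p = 0.103 for Olfr1307 and p = 0.167 for Olfr166, unadjusted, where the smallest possible value is 0.00794.

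With the first scan alone the groups came close together. In that scan control replicates 1 to 4 were on slide 1, and testosterone replicates 1 to 3 on slide 2 with control replicate 5. Group and slide can thus hardly be told apart in this comparison. The 3 testosterone arrays of the first scan had log2 ratios of 0.35 ± 0.040 (SD, n = 3) for Olfr1307 and 0.90 ± 0.040 (SD, n = 3) for Olfr166, both inside the control range. The difference from controls was then 0.11 ± 0.159 (SE) for Olfr1307 and -0.02 ± 0.130 (SE) for Olfr166, both with a limma adjusted p of 1.00. On the slide that held both groups it was -0.0081 for Olfr1307 and 0.06 for Olfr166, but there a single control, replicate 5, stands against testosterone replicates 1 to 3, so these values hold no spread between controls. Without testosterone replicate 5 alone the difference was 0.20 for Olfr1307 and -0.10 for Olfr166. With normexp and all arrays it was 0.12 for Olfr1307 and -0.15 for Olfr166. Over all 41359 probes 0.00% passed limma's test in either direction, that is 0 probes, and 2499 had an unadjusted p under 0.05. That last count was 1632 without testosterone replicate 4, 1555 without replicate 5 and 1298 without both. Leaving out any other single array gave 1983 (control replicate 3) to 3078 (testosterone replicate 1).

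The third question was whether the level within each fraction differed. Levels are log2 processed signals relative to the array's 75th percentile in that channel, and the level of a probe is not compared with that of another. In Sup, the mean level of Olfr1307 was -2.33 ± 0.151 (SD, n = 5) for controls, against -2.52 ± 0.111 (SD, n = 5) for testosterone. The single controls were at -2.35, -2.10, -2.51, -2.30 and -2.38, and the testosterone arrays at -2.47, -2.60, -2.42, -2.43 and -2.67. Every testosterone array was under the mean of the controls, and 2 were under the lowest control. The difference was -0.19 ± 0.109 (SE; limma adjusted p = 0.464), with an exact two-sided permutation p of 0.0556, so it did not pass by either test. It was -0.17 without the second scan, -0.11 on the slide with 1 control, and -0.03 with normexp.

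In IP, the mean level of Olfr1307 was -2.11 ± 0.077 (SD, n = 5) for controls, against -1.98 ± 0.318 (SD, n = 5) for testosterone. The second-scan arrays were highest, at -1.68 and -1.59, as 14.2% of probes also were on both of these arrays, while testosterone replicates 1 to 3 were at -2.26, -2.19 and -2.18 and the controls between -2.20 and -2.04. The difference was 0.13 ± 0.143 (SE; limma adjusted p = 0.656). Without the second scan it was -0.10 ± 0.092 (SE; limma adjusted p = 0.757), so the sign depends on these 2 arrays.

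Olfr166 showed the reverse arrangement, with the second scan high in Sup. Its mean Sup level was -0.72 ± 0.148 (SD, n = 5) for controls, against -0.60 ± 0.271 (SD, n = 5) for testosterone. Testosterone replicates 1 to 3 were at -0.77, -0.85 and -0.76, inside the control range of -0.90 to -0.54, and replicates 4 and 5 above it at -0.36 and -0.26. Of all probes, 15.8% were likewise highest on both of these arrays. The difference was 0.12 ± 0.142 (SE; limma adjusted p = 0.666) with all arrays and -0.07 ± 0.117 (SE; limma adjusted p = 0.970) without the second scan. In IP the mean level of Olfr166 was 0.17 ± 0.102 (SD, n = 5) for controls, against 0.13 ± 0.118 (SD, n = 5) for testosterone. The single controls were at 0.21, 0.29, 0.03, 0.10 and 0.21. Testosterone replicates 1 to 3 were at 0.07, 0.03 and 0.04, and the second-scan arrays at 0.23 and 0.28. The difference was -0.04 ± 0.094 (SE; limma adjusted p = 0.849) and -0.13 ± 0.096 (SE; limma adjusted p = 0.708) without the second scan. Over all probes 0.00% of 44627 passed limma's test in Sup, that is 0 probes (4995 at an unadjusted p under 0.05). The unadjusted count was 2854 without testosterone replicate 4, 2369 without replicate 5 and 1826 without both. Leaving out any other single array gave 3738 (control replicate 2) to 6218 (testosterone replicate 3). In IP 1 of 44318 passed, lower after testosterone, which is 0.00226%.

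**Figure D3:**
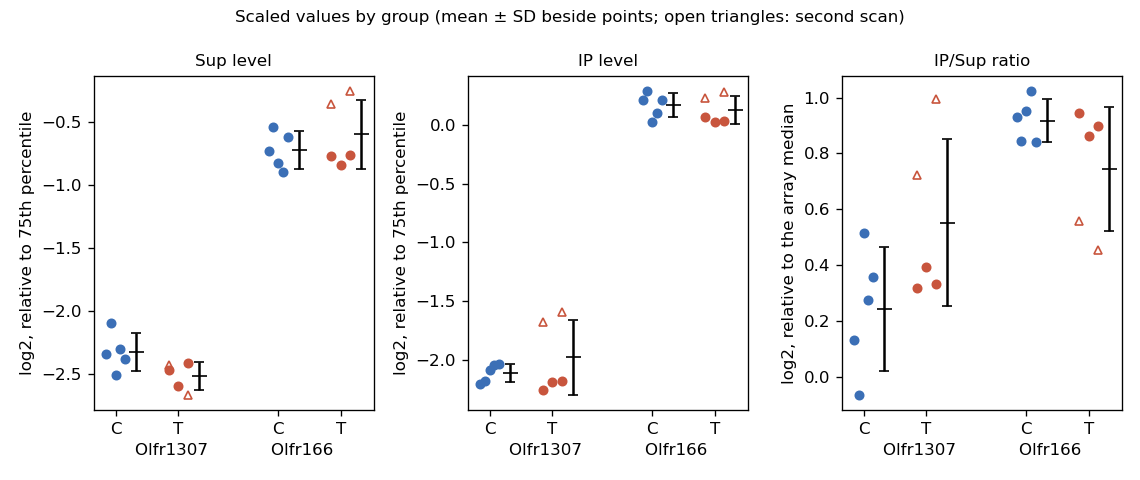
Scaled log2 values by group (C control, T testosterone) for the Sup level, the IP level and the IP/Sup ratio. Points are arrays, open triangles the second scan, and black marks the mean ± SD (n = 5). Testosterone replicates of the first scan overlap the controls in every panel. In the second scan Olfr1307 stands high in IP, at -1.68 and -1.59, and Olfr166 in Sup, at -0.36 and -0.26.

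The second scan was therefore set against testosterone replicates 1 to 3 in the fit with the scan as a block. This comparison was chosen after the values above were seen, so its p-values only describe the data and are no independent test. In IP the level of Olfr1307 was higher in the second scan by 0.58 ± 0.111 (SE) on the log2 scale, with a 95% interval from 0.33 to 0.82 (limma adjusted p = 0.00860). Before scaling, its IP signal was 339 and 359.7 in the second scan and 292, 359 and 359 in testosterone replicates 1 to 3, with no such gap. The 75th percentile was 1085 and 1084 against 1395 to 1644. The difference thus holds relative to the other probes of the array and depends on the scaling. Before any correction, the mean IP spot brightness of Olfr1307 on testosterone replicate 4 was 48.1, against 49 for the brightest negative spot. Of its 9 spots used on that array, 4 were brighter than that negative spot, so 1 of the 2 second-scan values lies near the brightest negative spot. In the comparison of the scans 8.11% of 44234 probes were higher and 6.93% lower in IP. The Sup level of Olfr1307 differed by -0.05 ± 0.150 (SE; limma adjusted p = 0.849). For Olfr166 the Sup level differed by 0.49 ± 0.139 (SE; limma adjusted p = 0.0578) and the IP level by 0.21 ± 0.115 (SE; limma adjusted p = 0.236). Neither passed, and 4.34% of probes were higher and 3.22% lower in Sup.

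The IP/Sup ratio differed between the scans by 0.51 ± 0.197 (SE; limma adjusted p = 0.192) for Olfr1307 and -0.39 ± 0.157 (SE; limma adjusted p = 0.204) for Olfr166, where the median of all probes tested was -0.16. For Olfr1307 both second-scan arrays had a higher ratio than all 8 others, as had 5.21% of probes. For Olfr166 both were lower, as had 16.0% of probes. Of the ratios tested, 0.385% were higher and 1.18% lower in the second scan by limma's adjusted p. Before scaling, the IP signal of Olfr166 was lower in the second scan and its Sup signal was within the range of the other testosterone arrays. The scan differences of its separate levels, like the IP difference of Olfr1307, thus depend on the scaling. The ratio does not use the 75th percentile but is centred on the array median of the log2 ratio. That median was 0.027 and 0.076 in the second scan and -0.085, 0.028 and -0.077 in testosterone replicates 1 to 3. The second scan held no control array and was a slide of its own, so scan, slide and sample cannot be told apart.

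The 10 spots give the technical spread within an array. For the log2 IP/Sup ratio the SD over spots had a median of 0.24 for Olfr1307 (range 0.13 to 0.26) and 0.13 for Olfr166 (range 0.08 to 0.17). From the spots alone, the mean of an array would vary with an SD of 0.074 for Olfr1307 and 0.042 for Olfr166. Between the arrays of a group the SD was larger, at 0.26 and 0.17. Among the first-scan arrays it was 0.18 for Olfr1307 and 0.07 for Olfr166. Olfr1307 varied most over spots in Sup, with a median SD of 0.17 against 0.06 for Olfr166, and its spot in row 2 and column 26 lay lowest there, with a mean of -0.23 relative to the array mean of its spots.

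As genes with a like pattern, the 3 with the highest Pearson r of the log2 IP/Sup ratio over the 10 arrays were taken from the 37 other named genes tested. For Olfr1307 these were Hspb7, a small heat shock protein (r = 0.67, Spearman rho 0.38), Gamt, which completes creatine synthesis (r = 0.59, rho 0.54), and Acaa2, a thiolase of fatty acid oxidation (r = 0.48, rho 0.58). Over the 8 arrays of the first scan r was 0.16 for Hspb7, 0.60 for Gamt and 0.56 for Acaa2. For Olfr166 they were Gsta4, a glutathione S-transferase (r = 0.86, rho 0.73), Actb, cytoplasmic beta-actin (r = 0.79, rho 0.27), and Bambi, a membrane inhibitor of TGF-beta signalling (r = 0.74, rho 0.64). Over the first scan r was 0.48 for Gsta4, -0.34 for Actb and 0.52 for Bambi. The ratios share arrays and their scaling, so these values only describe the order, and for Hspb7 and Actb the likeness rested on the second scan. The order itself differed on the first scan, where, looked up after these values were seen, the highest r with Olfr1307 were those of Prdx2 (0.83), Gsdmd (0.82) and Rps4l (0.81). With Olfr166 the highest was that of Cpt1a (0.74). Over all 10 arrays r was 0.38 for Prdx2, 0.04 for Gsdmd, 0.35 for Rps4l and -0.01 for Cpt1a.

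**Figure D4:**
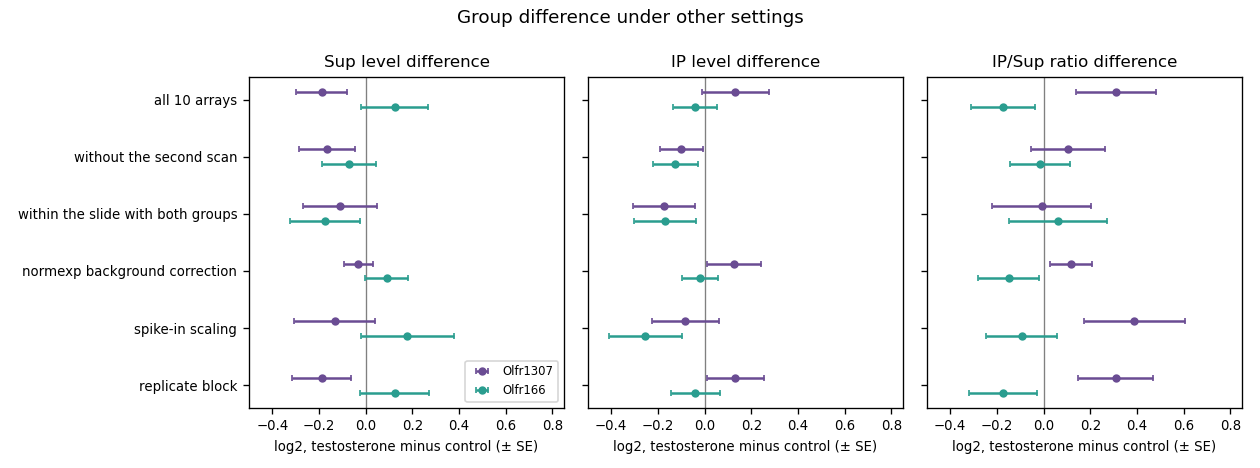
Difference between the groups (log2, testosterone minus control, points with SE bars) for the Sup level, the IP level and the IP/Sup ratio under 6 settings, Olfr1307 in purple and Olfr166 in green. With all arrays the ratio differences are 0.31 and -0.17. Without the second scan they are 0.11 and -0.02. The slide with both groups has 1 control array, so its bars hold no spread between controls.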

How the data were processed

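The authors used Agilent Feature Extraction 11.0.1.1 to read the spots, per the submitters' processing notes. The processed signal is a linear intensity for which, per the file headers, background-subtracted signals, detrending fits and linear and lowess dye factors were computed on each array. Flags of 0 or 1 in the deposited files mark spots that were above background, saturated or outlying. The authors' deposited value table is on a log2 scale: within 0.001, in every one of its 44264 rows a value equals log2 of the Cy5 signal less a constant for that array, whose origin is unknown. It has 0 rows for these genes. Array by array, the medians of its columns are 1.47, 2.19, 2.22, 1.89 and 2.25 (control) and 2.03, 1.88, 1.26, 1.98 and 1.38 (testosterone).

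Here, outlier and control spots were left out and the spots of a probe averaged on the log2 scale. Ratios were centred on the array median and levels on the 75th percentile. Probes were tested if most of their spots were well above background on at least 5 of 10 arrays, in both channels for the ratio. The test was limma 3.58.1 (lmFit and eBayes, R 4.3.3) with Benjamini-Hochberg adjustment over all probes tested and a threshold of 0.05, and the scripts were tested on simulated data. The number of arrays limits the precision. Control replicates 1 to 4 were on slide 1. Slide 2 had control replicate 5 and testosterone replicates 1 to 3. Testosterone replicates 4 and 5 were on slide 3, whose scan was a separate one. Members and lists were chosen with earlier results of these data known. Both receptor genes were named whatever their values, and for each the 3 named genes of highest correlation. Accessions were matched to RefSeq symbols without versions.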

Additional observations from a re-analysis of the deposited data

How the results depend on the processing

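Under every alternative that gave them a value, neither gene passed limma's test for a group difference, with adjusted p from 0.354 to 1.00 over these settings. Several signs turned. The Olfr1307 IP level difference was -0.10 without the second scan and with the scan as a block, -0.17 with the slide as a block and on slide 2 alone, where both groups were present, and -0.083 with spike-in scaling. The Olfr166 Sup level difference was -0.071 without the second scan and with the scan as a block, and -0.18 with the slide as a block and on slide 2 alone. With the slide as a block and on slide 2 alone, the IP/Sup ratio difference was -0.0081 for Olfr1307 and 0.062 for Olfr166. The Olfr166 IP level difference was 0.019 with median scaling. Both slide settings rest on 1 control array (replicate 5) against 3 testosterone arrays, so that the spread of that control is taken from the other arrays. Normexp kept the sign but gave -0.031 for the Olfr1307 Sup level difference (-0.19 in the report) and 0.12 for its ratio difference (0.31). Its offset of 50 narrows log2 differences of dim probes, and the share of the offset in these changes was not tested. Leaving out each replicate in turn gave ratio differences from 0.20 to 0.38 for Olfr1307 and from -0.22 to -0.10 for Olfr166. Spike-in scaling moved the median IP level difference of all probes from -0.03 to -0.24. The cause of these turns was not tested.

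The number of probes called for the IP level, 1 with the settings of the report, was 0 with spike-in scaling, the scan as a block or the replicate block, and 3 with no filter, with probes above background on all arrays, or with trended and robust eBayes. It was 471 in the authors' deposited value table (23 higher, 448 lower). There the median IP level difference of all probes was -0.30, against -0.03 with the settings of the report. The number called was 0 to 2 when each replicate was left out. It was 0 without any of control replicates 2 to 5 or testosterone replicates 1 and 3, and 2 without testosterone replicate 4 or 5. In Sup it was 2 rather than 0 with the slide as a block and on slide 2 alone, both from that contrast with 1 control array. Normexp called 10281 probes for a fraction (4415 towards IP, 5866 towards Sup) against 16795, and spike-in centring 9422 towards IP and 7318 towards Sup.

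Same-numbered samples did not deviate together: over 15 correlations of their deviations the range was -0.19 to 0.18. Of the 15, 2 were highest with their own number. No pairing by number was thus seen, but these values cannot exclude one, since dam and litter are not named. With the replicate block the ratio difference was 0.31 for Olfr1307 (limma adjusted p = 0.727) and -0.17 for Olfr166 (limma adjusted p = 0.808).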
